A study of Mus musculus with 18 samples.

Results

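Potassium channel genes were taken here as all rows of the expression tables that carry an Entrez gene ID and a symbol made of Kcn, a family letter or letters, and a number. With 1 row kept per symbol, the one with the highest mean level, 92 genes were found among 52093 symbols. They encode pore-forming channel subunits and their accessory subunits. Their transcripts were measured by RNA-seq in 3 fat depots of wild-type male C57BL/6 mice, 16 weeks old, kept on high-fat diet (HFD) over 12 weeks, with 6 samples per depot. The strain field of the labels gives C57BL/6, their protocol text gives C57BL/6J, and a supplement of the study names C57BL/6NTac. The groups are mature adipocytes from inguinal white adipose tissue (iWAT), mature adipocytes from epididymal white adipose tissue (eWAT) and brown adipose tissue (BAT). White adipocytes were the cells that float after collagenase digestion, whereas BAT was extracted as whole tissue, although 1 label field calls these samples BAT adipocytes. No group carries a transgene or a drug treatment, and the same diet was given to every group, so that these data hold no comparison of diets. One label field says regular chow, whereas the titles and protocol say HFD, and HFD was used here.

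Potassium channels let potassium ions leave or enter the cell along their gradient and thereby set the resting potential. Two-pore-domain channels carry leak currents, voltage-gated (Kv) channels open on depolarization, and calcium-activated channels open when cytosolic calcium rises. Inward rectifiers pass current more easily into the cell than out of it. In brown adipocytes, the leak channel encoded by Kcnk3 is known to restrain calcium entry and the noradrenergic response. In fat tissue, immune, endothelial and mural cells and nerve sheaths carry potassium channels of their own.

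Between 24655056 and 42518483 reads were counted on the rows of each sample. Levels below are deposited RPKM, a read count divided by transcript length and by library size. Differences are log2 fold changes fitted by edgeR on the counts with TMM scaling, and a gene is said to differ where the adjusted p was under 0.05. TMM scaling raises BAT 1.54-fold over the white depots relative to deposited RPKM, so that a fitted fold against BAT does not equal the ratio of the RPKM values. The study describes its groups in mice, but no source used here ties each sample to an animal, and the p-values measure the spread between these samples. Samples of iWAT and of eWAT were present in lane 1 and in lane 2, and the 24 genes that differed between these depots (below) did so in the same direction within each lane. Lanes 3 and 4 held BAT alone, and lane and tissue thus cannot be separated for BAT. Summed RPKM of the brown adipocyte markers Ucp1, Cidea, Ppargc1a, Elovl3 and Dio2 was 2000 to 2638 in BAT and at most 12.8 in the white depots. Markers of other cells were also present. The macrophage markers Cd68, Emr1, Csf1r, Cd14 and Itgam summed to 154.5 to 292.8 RPKM in iWAT, 770.2 to 1164 in eWAT and 4.73 to 8.89 in BAT, and all 5 differed in each comparison. Summed adipocyte markers were lowest, at 3221 and 2378 RPKM, in eWAT samples 1 and 3. Summed endothelial markers (Pecam1, Cdh5, Tie1 and Kdr) and summed mural markers (Acta2, Myh11, Tagln, Rgs5 and Pdgfrb) were highest in iWAT samples 1 and 5. Of these genes, only Acta2 had another order, with 13.5 RPKM in iWAT sample 3 against 12.4 and 10.9 in samples 1 and 5. Summed skeletal muscle markers ranged from 1.515 to 106 RPKM among BAT samples. In tissue RNA, fewer cells of a type and less RNA per cell cannot be told apart.

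Most of the 92 genes were near or below the limit of detection. A mean of at least 1 RPKM was reached by 18 genes in iWAT, 17 in eWAT and 8 in BAT, by 21 genes in at least 1 depot and by 6 in all 3 (among them Kcna5, Kcnj15, Kcnj8, Kcnk3 and Kcns3). In contrast, 26 genes had at most 3 reads in every one of the 18 samples, and 4 of these (Kcna10, Kcnk9, Kcns2 and Kcnv1) had none. The summed level of the 92 genes was 108.1 ± 11.2 RPKM in iWAT, 106.9 ± 5.38 in eWAT and 78.3 ± 9.87 in BAT (mean ± SD, n = 6 samples each). The counts at 1 RPKM and these sums are on deposited RPKM. The order of BAT and the white depots in the sums depends on scaling. The 1.54-fold raise of BAT by TMM exceeds the gap between the BAT mean and either white mean.

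The gene at the head of this sum was a different one in eWAT than in the other depots. In BAT, Kcnk3 alone held 55.9 ± 1.83% of the summed level, and in eWAT, Kcnn4 held 36.0 ± 4.81% (mean ± SD, n = 6). In both of these depots, the first gene lay above the next one in all samples. In iWAT, Kcnk3 was also first, with 15.5 ± 3.09%, but among its 12 genes of highest mean, each overlapped the next one over samples. The 5 genes of highest mean held 50.7 ± 2.86% of the sum in iWAT, 65.8 ± 6.12% in eWAT and 86.0 ± 1.58% in BAT.

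**Figure D1:**
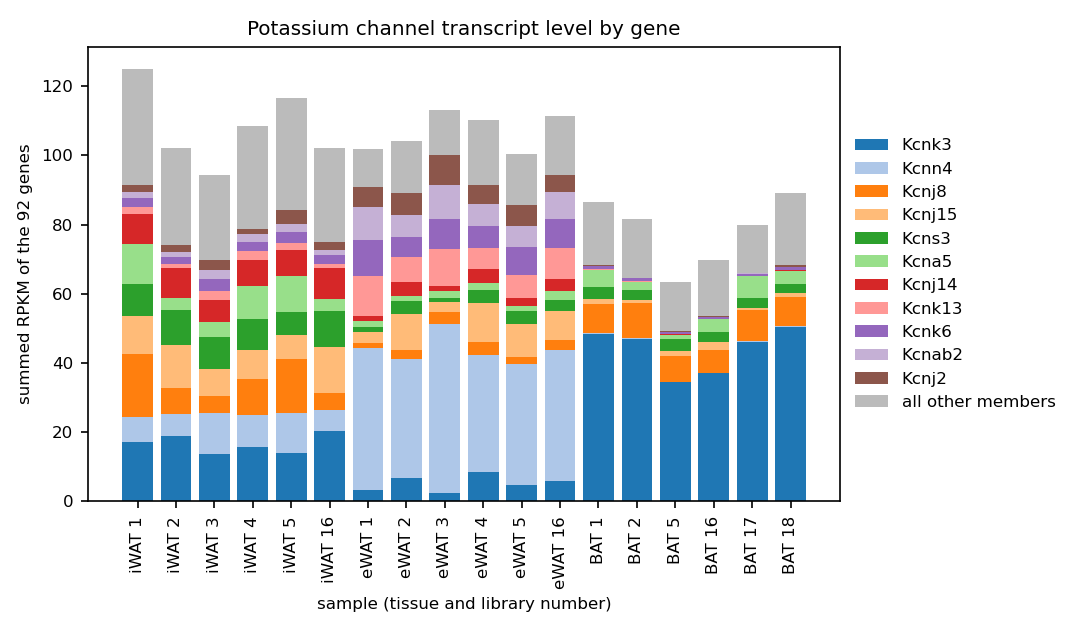
Summed RPKM of the 92 potassium channel genes in each of the 18 samples (x axis), as stacked bars split by gene; 11 genes are shown by color and the others in gray. Kcnk3 fills more than any other gene in all 6 BAT samples (34.4 to 50.4 RPKM) and Kcnn4 in all 6 eWAT samples (33.7 to 48.9 RPKM), whereas the iWAT bars are split among many genes.

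Comparing iWAT with eWAT, 34 of the 92 genes had enough reads to be tested (a mean count of at least 10) and 24 differed, 16 with higher and 8 with lower levels in iWAT. This share, 70.6%, was close to the 68.6% of all 19623 genes tested that differed. Comparing iWAT with BAT, 32 of 39 differed, 20 higher in iWAT and 12 higher in BAT, against 75.3% of all genes tested. Without TMM scaling, this split was 23 to 7. Comparing eWAT with BAT, 35 of 40 differed, 18 higher in eWAT and 17 higher in BAT, against 82.5% of all genes tested, and the split without TMM scaling was 22 to 15. By direction, 34.1% of all genes were higher in iWAT than in eWAT and 34.5% were lower. Against BAT, 38.1% of all genes were higher in iWAT and 37.2% in BAT, and 41.1% were higher in eWAT and 41.4% in BAT.

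Differences of at least 2 on the log2 scale were found for 14.7%, 46.2% and 57.5% of the potassium channel genes tested between iWAT and eWAT, iWAT and BAT, and eWAT and BAT. Among all genes tested, these shares were 3.87%, 16.5% and 24.9%. The median absolute log2 fold change in these comparisons was 1.37, 1.85 and 2.63 for potassium channel genes, against 0.47, 0.69 and 0.97 for all genes. The 3 comparisons share samples with each other and are not independent. Genes tested passed the count minimum in part through the depot in which they are high, so that these shares describe the tested genes and not all 92. Values of the 2 groups did not overlap for 19, 27 and 27 genes on TMM-scaled RPKM, which among all genes tested was the case for 43.5%, 56.4% and 66.3%.

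**Figure D2:**
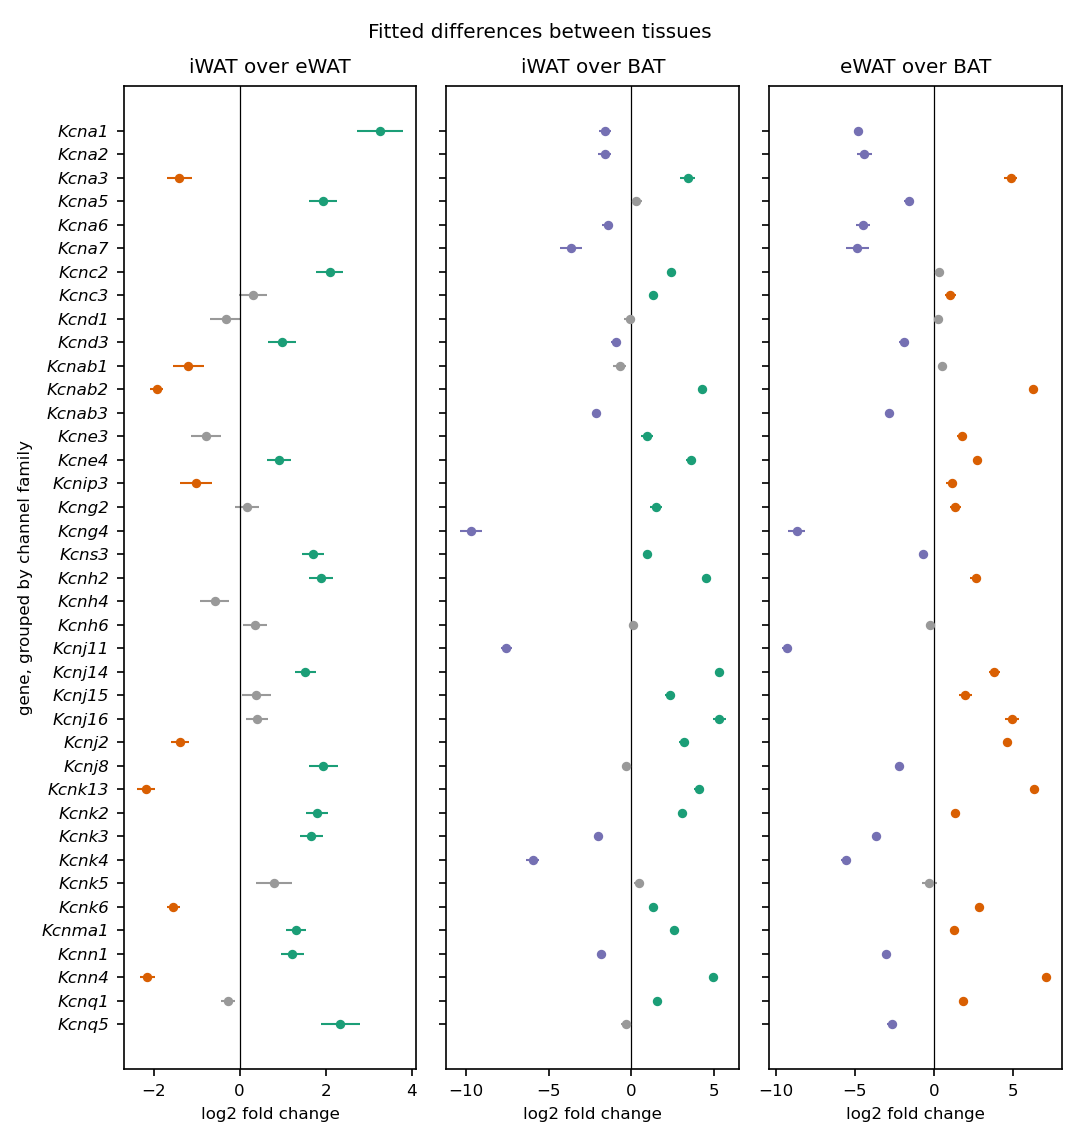
Fitted log2 fold changes (points) with their standard errors (lines) for 39 of the 41 potassium channel genes tested in at least 1 comparison, grouped by channel family, in 3 panels with separate x axes. Green, orange and purple points are genes that were higher in iWAT, eWAT and BAT, gray points did not pass the test; Kcnn4, Kcnk13 and Kcnab2 lie far to the eWAT side, and Kcng4, Kcnj11 and Kcnk4 far to the BAT side (Kcng4 had no read in iWAT, so its fitted value there depends on the prior count).

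The two-pore-domain gene of highest level in BAT and iWAT was Kcnk3 (chr5:30890543-30927643, mm9), which encodes an acid-sensitive leak channel. Its RPKM in BAT was 34.4 at the lowest, 46.5 at the median and 50.4 at the highest, in iWAT 13.6, 16.5 and 20.4, and in eWAT 2.46, 5.33 and 8.52. The 3 depots did not overlap, in the order BAT, iWAT, eWAT. The fitted log2 fold change of iWAT over BAT had an SE of 0.12 and corresponded to a 4-fold higher level in BAT (edgeR adjusted p = 6.47e-10). Against eWAT, BAT was 12.5-fold and iWAT 3.18-fold higher (edgeR adjusted p = 2.43e-09 and 9.60e-05). Kcnk3 was lowest in eWAT samples 1 and 3, at 3.22 and 2.46 RPKM, which also had the lowest adipocyte marker levels, and without these samples the log2 fold change between iWAT and eWAT was 1.36.

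Kcnk2, which encodes a mechanically and thermally gated leak channel, had the opposite order of iWAT and BAT. Its RPKM was 3.30 to 4.90 in iWAT (median 3.84), 0.467 to 1.88 in eWAT (median 1.157) and 0.244 to 0.363 in BAT (median 0.304). Levels were 3.47-fold higher in iWAT than in eWAT and 8.49-fold higher than in BAT (edgeR adjusted p = 5.35e-05 and 3.91e-11). The Kcnk2 row overlaps those of 2900042K21Rik, A430027H14Rik, Gm2149 and Gm3837, and some of its reads may belong to these. Of the Kcnk2 row, 69.9% lies in the GENCODE gene Kcnk2, which shares 0% of its exonic bases with another gene. The related channel gene Kcnk4 (chr19:6996916-7009005) was counted mainly in BAT, where it had 28 to 74 reads per sample, against 0 to 3 in iWAT and 0 to 4 in eWAT. Its RPKM in BAT was 0.290 to 0.471 (median 0.407), and the fitted log2 fold changes of iWAT and of eWAT over BAT were -5.98 ± 0.39 and -5.56 ± 0.32 (edgeR adjusted p = 1.55e-09 and 2.80e-10). The Kcnk4 row overlaps that of 1700019N12Rik, and 72.8% of it lies in the GENCODE gene Kcnk4. By that annotation, 0% of its exonic bases are shared with another gene. As the use of strand is not given, some of these reads may belong to the other row.

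Kcnk13 and Kcnk6 were highest in eWAT. Kcnk13 (chr12:101202709-101300892), which encodes a halothane-inhibited leak channel known from microglia, had 6.06 to 11.5 RPKM in eWAT (median 8.10), 1.11 to 2.54 in iWAT (median 1.97) and 0.0378 to 0.136 in BAT (median 0.0506). Kcnk6 encodes a leak channel with weak inward rectification known from macrophages and had 5.79 to 10.3 RPKM in eWAT (median 8.18), 1.89 to 3.55 in iWAT (median 2.70) and 0.420 to 1.04 in BAT (median 0.714). For both genes, the 3 depots did not overlap. The level in eWAT was 4.51-fold that in iWAT for Kcnk13 and 2.91-fold for Kcnk6 (edgeR adjusted p = 2.13e-06 and 2.25e-06). Of the 14 two-pore-domain genes, 5 were tested between the white depots, and 2 were higher in iWAT and 2 in eWAT. Among all genes tested, 34.1% were higher in iWAT and 34.5% in eWAT.

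Kcnn4 (chr7:25155282-25170231) encodes the intermediate-conductance calcium-activated channel, which is known from T cells, macrophages and red blood cells. Its RPKM in eWAT was 33.7 at the lowest, 36.5 at the median and 48.9 at the highest, in iWAT 5.95, 8.11 and 12.0, and in BAT 0.120, 0.199 and 0.227. All eWAT samples lay above all iWAT samples, and these above all BAT samples. The fitted log2 fold change of iWAT over eWAT was -2.14 ± 0.17 (SE), a 4.41-fold higher level in eWAT (edgeR adjusted p = 5.26e-07). Kcnn4 was 137-fold higher in eWAT and 30.4-fold higher in iWAT than in BAT (edgeR adjusted p = 1.65e-14 and 2.25e-11). Among the 18 potassium channel genes higher in eWAT than in BAT, the fitted fold was highest for Kcnn4, followed by Kcnk13 with 78.3-fold and Kcnab2 with 76.4-fold.

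Macrophage markers moved with Kcnn4. Across samples, Kcnn4 was highest in eWAT samples 3 and 1, at 48.9 and 41.0 RPKM, which also had the highest summed macrophage markers, at 1164 and 1112 RPKM, and the lowest adipocyte markers. In iWAT, it was highest in samples 3 and 5, at 12.0 and 11.7 RPKM, where macrophage markers were 292.8 and 261.9 RPKM. Besides Kcnn4, the other genes that were higher in eWAT than in iWAT were Kcnk13, Kcnk6, Kcnab2, Kcnj2, Kcna3, Kcnab1 and Kcnip3. Within eWAT, Kcnk13, Kcnk6 and Kcnab2 also had their highest values in samples 1 and 3. Kcnj2 and Kcnip3 were highest in sample 3 as well, at 8.66 and 0.287 RPKM, whereas sample 1 had 5.85 and 0.19 RPKM. Kcna3 and Kcnab1 were highest in neither sample. Kcna3 was lowest in eWAT sample 1, at 0.605 RPKM, and Kcnab1 was highest in eWAT sample 4, at 0.136 RPKM. The T cell markers Cd3e, Cd3d and Cd3g had means under 0.1 RPKM in every depot. Cd2, the other T cell marker listed, had means of 0.559 RPKM in iWAT, 0.486 in eWAT and 0.0870 in BAT, was higher in both white depots than in BAT (edgeR adjusted p = 8.42e-05 and 0.000513) and was not called between the white depots (edgeR adjusted p = 0.597). The 4 T cell markers summed to 0.423 to 1.09 RPKM in iWAT, 0.331 to 1.06 in eWAT and 0.0357 to 0.255 in BAT. The part of macrophage or T cell RNA in these differences was not tested.

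**Figure D3:**
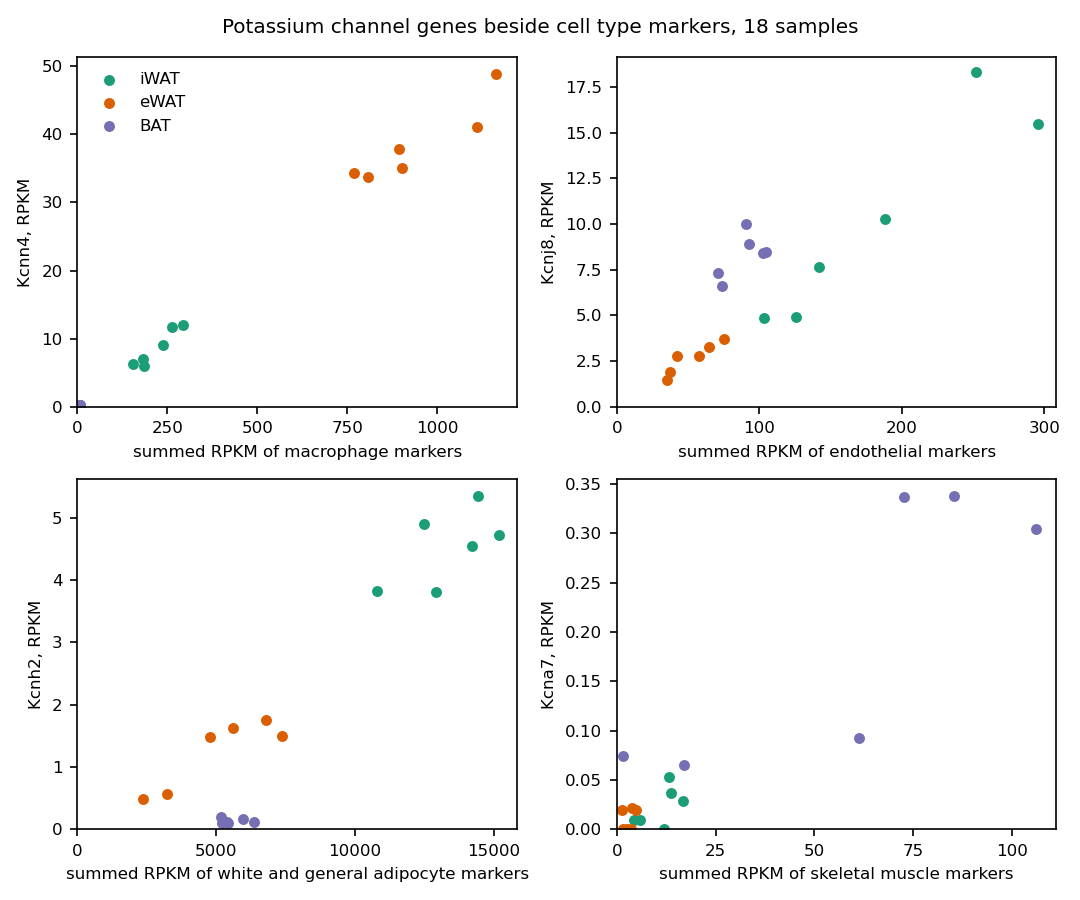
Each panel plots 1 potassium channel gene (RPKM, y axis) against the summed RPKM of a list of cell type markers (x axis) in 18 samples colored by tissue. Kcnn4 and macrophage markers are both highest in the 6 eWAT samples, Kcnj8 and endothelial markers in iWAT samples 1 and 5, Kcnh2 is at most 0.198 RPKM in BAT at adipocyte marker levels within the range of eWAT, and Kcna7 is above 0.3 RPKM in 3 BAT samples with high muscle markers.

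The 300 bases around the annotated start of Kcnn4 and Kcnk13 are shown because these genes led the group that was higher in eWAT. They are RefSeq sequences of GRCm38.p6, 5′ to 3′ on the strand of the gene, with 250 bases before and 50 from the start on, and their coordinates are not comparable with the mm9 positions given elsewhere. Capitals mark GAGGAA, a core motif of ETS family factors such as the myeloid factor PU.1, on either strand. It occurs in 28.3% of all 32851 promoters of this length and in 29.3% of the 92 promoters listed for 67 of the potassium channel genes. Kcnk13 holds 1 copy and Kcnn4 none. The Kcnn4 window is chr7:24370013-24370312 on the plus strand and the Kcnk13 window chr12:99964249-99964548 on the plus strand.
Kcnn4: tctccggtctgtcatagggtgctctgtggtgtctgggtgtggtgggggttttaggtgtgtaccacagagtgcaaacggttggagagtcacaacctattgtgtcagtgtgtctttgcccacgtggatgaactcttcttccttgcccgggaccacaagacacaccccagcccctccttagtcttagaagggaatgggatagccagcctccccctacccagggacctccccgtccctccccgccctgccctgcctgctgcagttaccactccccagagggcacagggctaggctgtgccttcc
Kcnk13: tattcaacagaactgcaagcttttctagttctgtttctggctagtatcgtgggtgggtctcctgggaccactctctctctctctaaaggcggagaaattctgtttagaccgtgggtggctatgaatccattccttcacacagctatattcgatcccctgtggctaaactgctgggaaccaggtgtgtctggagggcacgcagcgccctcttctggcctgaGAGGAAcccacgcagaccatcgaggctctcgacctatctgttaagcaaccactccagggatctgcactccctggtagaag

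Among the other calcium-activated genes, Kcnn1, which encodes a small-conductance channel, was highest in BAT. Its RPKM was 0.734 to 1.44 in BAT (median 1.26), 0.358 to 0.6251 in iWAT (median 0.522) and 0.0916 to 0.325 in eWAT (median 0.224), with no overlap between depots. It was 3.62-fold higher in BAT than in iWAT and 2.34-fold higher in iWAT than in eWAT (edgeR adjusted p = 2.31e-08 and 0.00100). Kcnma1, the pore of the large-conductance channel, named after its values were seen, was at 0.115 RPKM in iWAT, 0.0471 in eWAT and 0.0129 in BAT on average. The 4 genes for beta subunits of that channel summed to 0.0602, 0.0603 and 0.0893 RPKM, and none had enough reads to be tested.

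Inward rectifiers made up 31.3 ± 6.16 RPKM in iWAT, 20.01 ± 4.83 in eWAT and 11.3 ± 0.860 in BAT (sum of 15 genes, mean ± SD, n = 6). Kcnj14, which encodes a strong rectifier, had 6.42 to 9.03 RPKM in iWAT (median 8.09), 1.40 to 4.01 in eWAT (median 2.94) and 0.0638 to 0.205 in BAT (median 0.121). The depots did not overlap, and the level in iWAT was 2.88-fold that in eWAT and 39.7-fold that in BAT (edgeR adjusted p = 0.000140 and 4.44e-12). Kcnj2, a strong rectifier that holds the resting potential of muscle and of macrophages, had 5.01 to 8.66 RPKM in eWAT (median 5.95), 1.38 to 4.09 in iWAT (median 2.12) and 0.109 to 0.301 in BAT (median 0.162). It was 2.6-fold higher in eWAT than in iWAT and 23.8-fold higher than in BAT (edgeR adjusted p = 7.12e-05 and 2.75e-11). Only 31.7% of the Kcnj2 row lies in the GENCODE gene Kcnj2, which shares 0% of its exonic bases with another gene.

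Kcnj15, whose product is known from epithelial cells, varied widely within eWAT. Its RPKM there was 3.17 and 2.90 in samples 1 and 3 and 8.59 to 11.5 in the other samples, against 7.01 to 13.4 in iWAT (median 9.73) and 0.569 to 2.15 in BAT (median 1.19). The white depots overlapped, and the difference between them did not pass the test (log2 fold change 0.38 ± 0.33, edgeR adjusted p = 0.318). Without eWAT samples 1 and 3, the log2 fold change was -0.01. Kcnj15 was 5.11-fold higher in iWAT and 3.95-fold higher in eWAT than in BAT (edgeR adjusted p = 2.93e-06 and 0.000257). Kcnj16, a partner subunit of Kcnj15, had 0.435 to 0.904 RPKM in iWAT and 0.274 to 0.728 in eWAT, and 0 to 3 reads per sample in BAT.

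ATP-sensitive potassium channels join a pore subunit encoded by Kcnj8 or Kcnj11 with a sulfonylurea receptor encoded by Abcc8 or Abcc9. Kcnj8 (chr6:142513359-142519891) was found in all depots, with 6.63 to 10.0 RPKM in BAT (median 8.46), 4.85 to 18.4 in iWAT (median 8.97) and 1.48 to 3.70 in eWAT (median 2.78). All eWAT samples lay below those of both other depots, and the level was 3.85-fold higher in iWAT and 4.71-fold higher in BAT (edgeR adjusted p = 0.000216 and 9.50e-09). Between iWAT and BAT, the groups overlapped and the test was not passed (edgeR adjusted p = 0.277). The highest iWAT values, 18.3 and 15.5 RPKM, were those of samples 1 and 5, where endothelial markers summed to 252.3 and 295.5 RPKM against 103.5 to 188.2 in the other 4. Without these samples, Kcnj8 was higher in BAT than in iWAT, with a log2 difference of -0.82 for iWAT over BAT (edgeR adjusted p = 0.000675). This value is with TMM scaling. With all samples, the log2 difference was -0.32 with TMM and 0.55 without it. Whether the call without samples 1 and 5 holds without TMM was not tested. Kcnj8 is known from mural cells of blood vessels, and the part of these cells in the difference was not tested.

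Kcnj11 (chr7:53352493-53356134), the other pore subunit, was counted almost solely in BAT. It had 87 to 155 reads per BAT sample, equal to 1.09 to 1.44 RPKM (median 1.19), against 0 to 2 reads in iWAT and 0 to 1 in eWAT, so that the groups did not overlap. The fitted log2 fold change of iWAT over BAT was -7.56 ± 0.31 (edgeR adjusted p = 1.03e-11). Against eWAT, with 1 read in all 6 samples, the difference passed the test as well (edgeR adjusted p = 9.02e-13) and its size is not given. BAT samples 2 and 17, with skeletal muscle markers of only 1.515 and 16.96 RPKM, lay within the Kcnj11 range of the other BAT samples, and with these 2 samples alone the log2 fold change of iWAT over BAT was -7.40. Of the receptors, Abcc9 followed the order of Kcnj8, at 9.58 RPKM in iWAT, 2.79 in eWAT and 5.84 in BAT on average, and was also highest in iWAT samples 1 and 5, at 14.3 and 17.5 RPKM; iWAT and BAT did not differ by the test (edgeR adjusted p = 0.738). Abcc8 had at most 0.0828 RPKM in any sample.

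The genes of G protein-gated inward rectifiers, which open on release of G protein beta-gamma subunits from Gi-coupled receptors, were near zero in all depots. Kcnj3 had at most 1 read, Kcnj5 at most 2 and Kcnj6 at most 2 reads in any sample, and Kcnj9 had up to 7 reads in eWAT and at most 1 elsewhere. None of the 4 had enough reads to be tested, and Kcnj9 in eWAT was the only case with a read in every sample of a depot.

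**Figure D4:**
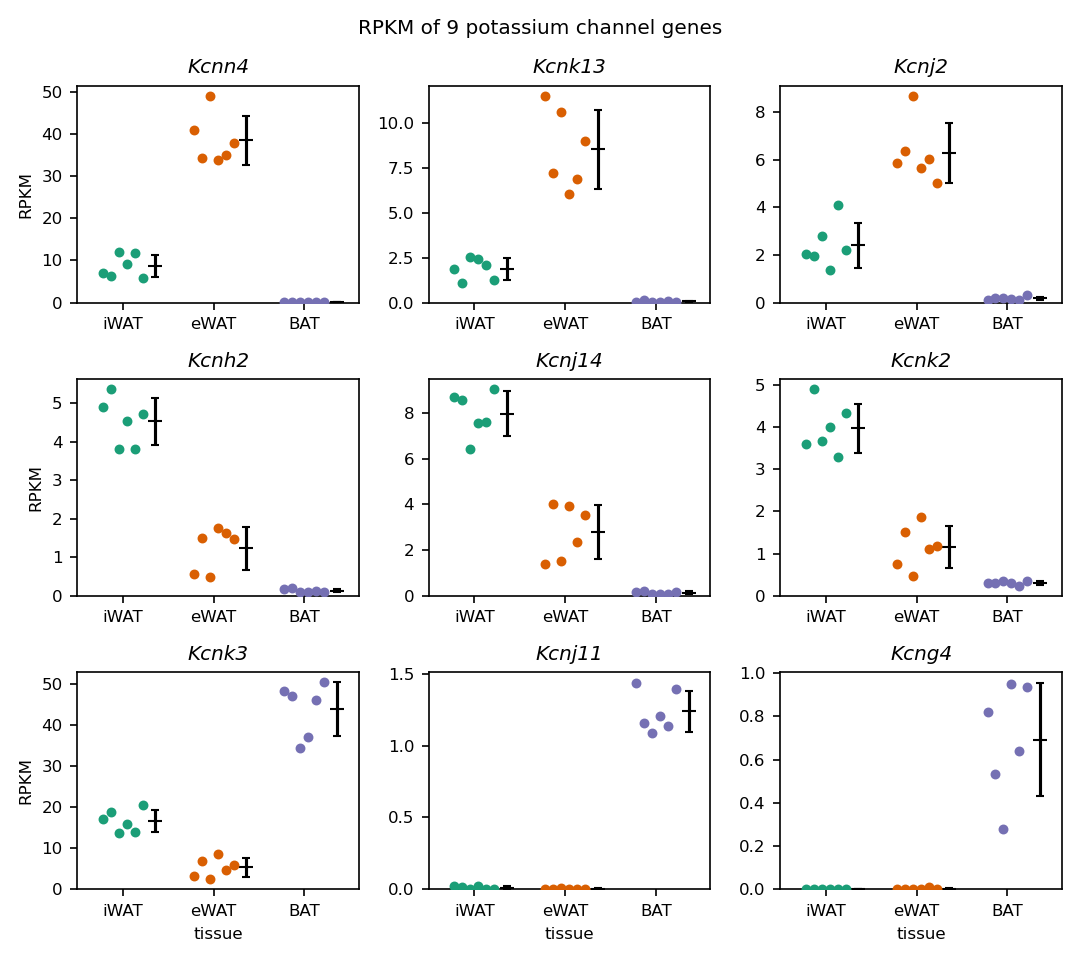
RPKM (y axes, linear from 0) of 9 potassium channel genes in the 6 samples of each depot (points), with mean and SD (black bars). The upper row shows genes highest in eWAT, the middle row genes highest in iWAT and the lower row genes highest in BAT; Kcnj11 and Kcng4 lie at or near 0 in both white depots.

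Pore-forming Kv subunits summed to 16.2 ± 4.03 RPKM in iWAT, 6.33 ± 1.43 in eWAT and 13.8 ± 2.70 in BAT (17 genes, mean ± SD, n = 6). These sums are on deposited RPKM, and the 1.54-fold raise of BAT by TMM exceeds the gap between iWAT and BAT. Of 8 genes tested between the white depots, 5 were higher in iWAT and 1 in eWAT, where 68.6% of all tested genes differed. Of 11 tested between iWAT and BAT, 3 were higher in iWAT and 6 in BAT (75.3% of all tested genes differed), and without TMM 4 and 1. Of 11 tested between eWAT and BAT, 2 were higher in eWAT and 7 in BAT (82.5% of all tested genes differed), and without TMM 4 and 7.

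Kcna5, a Kv channel of the Shaker family known from vascular smooth muscle and macrophages, had 3.31 to 11.7 RPKM in iWAT (median 6.86), 1.29 to 6.38 in BAT (median 3.84) and 1.27 to 2.58 in eWAT (median 1.90). It was 3.82-fold higher in iWAT than in eWAT (edgeR adjusted p = 0.000162), and the 2 groups did not overlap. In iWAT it was highest in samples 1, 5 and 4, at 11.7, 10.2 and 9.45 RPKM. These were the 3 iWAT samples with the highest summed endothelial and mural markers, although the mural marker Acta2 had another order. The difference between iWAT and BAT did not pass the test (edgeR adjusted p = 0.454). On total counts without TMM, Kcna5 was called higher in iWAT than in BAT (log2 fold change 1.18, edgeR adjusted p = 0.00642), as it was by limma when 0.1 or 1 was added to RPKM before the log2 step (adjusted p = 0.0479 and 0.0473). Kcnc2, of the fast-deactivating Shaw family, was highest in iWAT, with 0.886 to 2.15 RPKM (median 1.79), against 0.154 to 0.696 in eWAT (median 0.345) and 0.182 to 0.239 in BAT (median 0.200), and was 4.26-fold higher in iWAT than in eWAT (edgeR adjusted p = 5.37e-05). Kcna3, known as the Kv channel of T cells and macrophages, had 0.605 to 1.51 RPKM in eWAT (median 1.163), 0.261 to 0.652 in iWAT (median 0.390) and 0 to 3 reads per sample in BAT, and the white depots overlapped although the test was passed (2.65-fold higher in eWAT, edgeR adjusted p = 0.000764).

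Kcna1, Kcna2 and Kcna6, which encode Kv channels of myelinated axons, were all lowest in eWAT. Kcna1 had 0.228 to 0.598 RPKM in BAT (median 0.481), 0.0536 to 0.410 in iWAT (median 0.204) and 0.00752 to 0.0362 in eWAT (median 0.0225), and was 28.3-fold higher in BAT than in eWAT (edgeR adjusted p = 2.33e-10). Kcna2 and Kcna6 were 21.5-fold and 23.0-fold higher in BAT than in eWAT (edgeR adjusted p = 4.20e-07 and 1.44e-07). Higher levels in BAT than in iWAT, 3.03-fold for Kcna1, 3.08-fold for Kcna2 and 2.70-fold for Kcna6, were not called on total counts without TMM (edgeR adjusted p = 0.0945, 0.0980 and 0.129). Of the Kcna6 row, 39.5% of the exonic bases are shared with another annotated gene, so that its counts are uncertain. The Schwann cell marker Sox10 had a mean under 0.1 RPKM in eWAT and was at 0.181 to 0.335 RPKM in BAT, while the neuronal markers Snap25, Syt1 and Th had means under 0.1 RPKM in every depot. Tubb3, the other neuronal marker listed, had means of 0.119 RPKM in iWAT, 0.180 in eWAT and 0.0867 in BAT, with too few reads to be tested. The 4 listed Schwann cell markers summed to 5.93 to 19.2 RPKM in iWAT, 5.27 to 6.29 in eWAT and 4 to 6.49 in BAT, an order other than that of these genes. The part of nerve sheath cells or neurons in the levels of these genes was not tested.

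Kcna7, a Kv gene known from skeletal muscle and heart, had 0.338, 0.305 and 0.337 RPKM in BAT samples 1, 5 and 16 and 0.0742, 0.0646 and 0.0923 RPKM in samples 2, 17 and 18. Samples 2 and 17 were also lowest in skeletal muscle markers, whereas sample 18 had 61.2 RPKM of these. White depots had at most 0.0524 RPKM, and BAT was 12.7-fold higher than iWAT (edgeR adjusted p = 9.56e-05). Without the 4 BAT samples of high muscle markers, Kcna7 had too few reads to be tested.

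Silent Kv subunits do not conduct alone and modify channels formed by other Kv subunits. Kcns3, the most abundant of them, had 6.69 to 10.5 RPKM in iWAT (median 9.24), 1.18 to 3.89 in eWAT (median 3.31) and 2.64 to 3.53 in BAT (median 2.98). All iWAT samples lay above those of both other depots, 3.25-fold above eWAT and 1.96-fold above BAT (edgeR adjusted p = 8.13e-05 and 4.34e-06). A higher level in BAT than in eWAT, 1.64-fold (edgeR adjusted p = 0.0134), reversed without TMM to a log2 fold change of 0.20 for eWAT over BAT.

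Kcng4 (chr8:122147754-122159580), another silent subunit, had no read in any iWAT sample, 1 read in 1 eWAT sample and 26 to 123 reads in each BAT sample. Its RPKM in BAT was 0.277 at the lowest, 0.729 at the median and 0.952 at the highest. Set against the level that 3 reads per library would give, BAT was at least 36.6-fold higher than iWAT on TMM-scaled RPKM, and the test was passed against both white depots (edgeR adjusted p = 2.44e-07 and 8.90e-10). BAT samples 2 and 17, with few muscle markers, had 0.532 and 0.638 RPKM of Kcng4, whereas the lowest value was that of sample 5, where muscle markers were highest.

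Promoter windows of Kcng4 and Kcnk4, which were counted mainly in BAT, are shown with the same build and length as above. Kcnk3 and Kcnj11 had higher levels in BAT than these genes but no listed promoter. Capitals mark CAGCTG, an E-box that myogenic and other basic helix-loop-helix factors can bind and that reads the same on both strands. It occurs in 16.3% of all promoters and 25.0% of those of the potassium channel genes. Kcng4 (chr8:119635631-119635930, minus strand) holds 1 copy and Kcnk4 (chr19:6934466-6934765, minus strand) holds 2. The motifs and the promoters shown were chosen after the values were seen, and a match is a description of the letters only.
Kcng4: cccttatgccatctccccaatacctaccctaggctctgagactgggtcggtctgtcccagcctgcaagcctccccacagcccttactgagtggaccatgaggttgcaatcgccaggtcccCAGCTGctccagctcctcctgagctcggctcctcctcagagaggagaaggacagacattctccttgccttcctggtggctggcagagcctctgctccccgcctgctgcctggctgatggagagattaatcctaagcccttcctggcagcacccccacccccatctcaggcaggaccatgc
Kcnk4: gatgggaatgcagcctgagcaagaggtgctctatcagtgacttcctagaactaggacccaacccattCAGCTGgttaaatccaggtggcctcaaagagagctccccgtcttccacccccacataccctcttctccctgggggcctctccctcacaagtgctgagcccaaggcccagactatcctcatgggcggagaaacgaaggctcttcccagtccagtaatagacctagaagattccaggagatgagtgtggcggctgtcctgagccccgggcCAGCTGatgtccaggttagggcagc

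Accessory Kv subunits were highest in eWAT as a sum, 11.3 ± 1.96 RPKM against 7.64 ± 2.95 in iWAT and 0.968 ± 0.174 in BAT (11 genes, mean ± SD, n = 6). Kcnab2, a beta subunit of Shaker family channels with a fold like that of aldo-keto reductases, had 6.11 to 9.72 RPKM in eWAT (median 7.01), 1.52 to 2.48 in iWAT (median 2.01) and 0.0381 to 0.0986 in BAT (median 0.0618). The depots did not overlap, and eWAT was 3.81-fold above iWAT and 76.4-fold above BAT (edgeR adjusted p = 5.43e-07 and 7.30e-13). Kcnab3, of the same family, had the opposite order, with 0.198 to 0.402 RPKM in BAT (median 0.317) and at most 0.130 in either white depot. Kcne4, which inhibits Shaker family channels, had 2.19 to 8.11 RPKM in iWAT (median 4.46), 1.93 to 3.26 in eWAT (median 2.63) and 0.174 to 0.311 in BAT (median 0.285). Its higher level in iWAT than in eWAT, 1.89-fold (edgeR adjusted p = 0.0112), rested on iWAT samples 1 and 5 and was not called without them (log2 fold change 0.48, edgeR adjusted p = 0.0829). Kcnab1 and Kcnip3, at means of 0.112 and 0.173 RPKM in eWAT, were also higher there than in iWAT (edgeR adjusted p = 0.00904 and 0.0238), with overlapping groups. Without eWAT samples 1 and 3, Kcnip3 was no longer called (edgeR adjusted p = 0.125), nor was it with the replicate block of 6 pairs (edgeR adjusted p = 0.0511) or by limma on log2(RPKM + 1) (adjusted p = 0.0508).

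Kcnh2, the gene of the cardiac rapid delayed rectifier, was the only EAG, ERG or ELK gene that reached 1 RPKM in a white depot, and it differed in all comparisons. Its RPKM was 3.81 to 5.36 in iWAT (median 4.64), 0.486 to 1.75 in eWAT (median 1.49) and 0.0900 to 0.198 in BAT (median 0.113), with no overlap. It was 3.70-fold higher in iWAT than in eWAT and 22.3-fold higher than in BAT (edgeR adjusted p = 7.49e-05 and 2.62e-12). The lowest eWAT values, 0.562 and 0.486 RPKM, were those of samples 1 and 3, and without them the log2 fold change between iWAT and eWAT was 1.51 (edgeR adjusted p = 1.67e-06). Of the 5 KCNQ genes, 3 were tested in each comparison. Kcnq5, at means of 0.110 RPKM in iWAT, 0.0219 in eWAT and 0.0900 in BAT, was higher in iWAT than in eWAT (log2 fold change 2.34, edgeR adjusted p = 0.000449). Kcnq1, named after its values were seen, had means of 1.32, 1.60 and 0.297 RPKM in iWAT, eWAT and BAT, and the white depots did not differ by the test (edgeR adjusted p = 0.130).

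**Figure D5:**
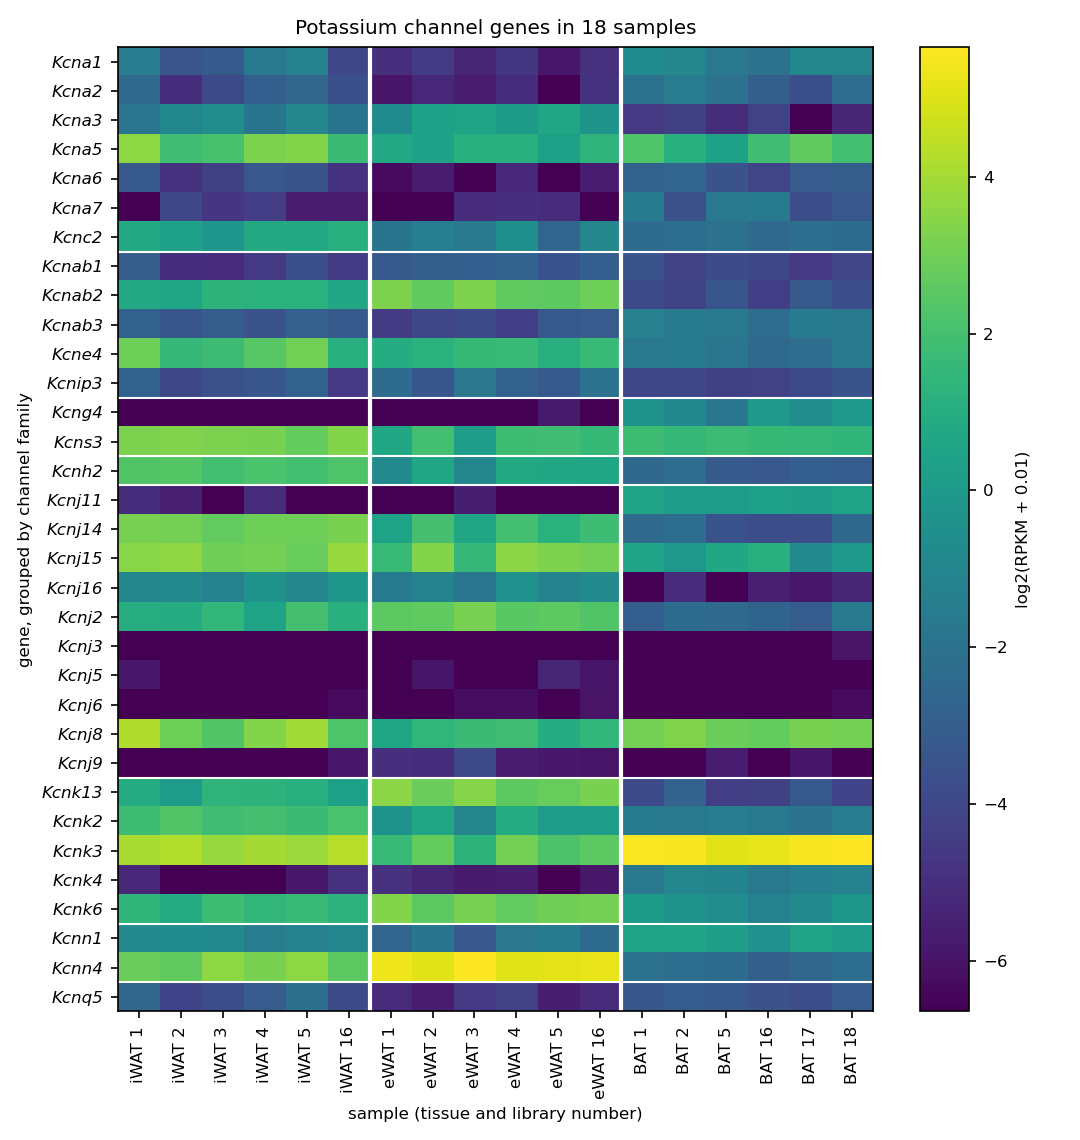
Heat map of log2(RPKM + 0.01) of 33 potassium channel genes (y axis, grouped by family) in 18 samples (x axis). Bright cells mark Kcnk3 in BAT and Kcnn4 in eWAT, and dark cells mark Kcng4 and Kcnj11 in the white depots and the G protein-gated Kcnj3, Kcnj5, Kcnj6 and Kcnj9 throughout.

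Of 29 listed genes for partner subunits and other potassium transport, 8 were higher in iWAT and 7 in eWAT out of 18 tested between the white depots. Out of 18 tested between iWAT and BAT, 4 were higher in iWAT and 10 in BAT, and out of 17 tested between eWAT and BAT, 6 were higher in eWAT and 10 in BAT. Over all tested genes, 68.6%, 75.3% and 82.5% differed in these comparisons. Without TMM, the split against BAT became 10 higher in iWAT and 4 in BAT, and 7 higher in eWAT and 10 in BAT.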

How the data were processed

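RNA-seq libraries from iWAT adipocytes, eWAT adipocytes and BAT (n = 6 samples each) were analysed from the per-sample tables. The authors trimmed reads with cutadapt 1.16 and aligned them with HISAT2 2.1.0 to mm9, per the submitters' processing notes. The counts were deposited by the authors as whole reads per gene row, and the deposited RPKM values are those counts scaled by the authors to transcript length and library size. The counting program, its annotation and its use of strand are not given in the sources used here, so reads of overlapping or antisense genes may be shared: 28 of the 92 genes overlap a row of another gene. By the GENCODE annotation, 4 of the 92 share over 10% of their exonic bases with another gene.

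Each pair of depots was compared on its own 12 samples with edgeR 4.0.16 in R 4.3.3 (TMM, quasi-likelihood test, two-sided) over every gene whose mean count reached 10. Adjusted p-values follow Benjamini and Hochberg across the whole table of tested genes, with a threshold of 0.05, and SE is the log2 fold change divided by the root of the F statistic. The script was tested on simulated data. Groups were compared for overlap on TMM-scaled RPKM. Genes were named if among the 10 of highest mean RPKM in a depot, or the 10 of largest called change in a direction of a comparison, or if they were Kcnk3 or subunits of ATP-sensitive or G protein-gated channels. The members, lists and rules were chosen with earlier results of these data known, and leaving out libraries that stood apart was an alternative chosen after seeing the data. Alternatives used limma 3.58.1 and DESeq2 1.42.0. Tables were handled in Python 3.11.15 with pandas 2.3.3, and promoter sequences came from RefSeq (GRCm38.p6). Replicates of a depot differed by more than counting noise in every pair. Results for a few genes are not reported here. Groups follow the labels' titles and source names.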

Additional observations from a re-analysis of the deposited data

Results flagged for a closer look

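In each depot, every named gene was checked for 1 sample far from the other 5, by the gap to its neighbour over the whole range, with Dixon's critical value for 6 samples. Of 95 groups of 6 samples, 10 passed, where chance would give about 4.75 for continuous values. A single read beside 5 samples without reads passes by construction, so that 10 cannot be set against 4.75. Most of the 10 flagged values stand for a single read: Kcng4 at 0.00876 RPKM in eWAT sample 5, Kcnj11 at 0.0103 in eWAT sample 3, Kcnj3 at 0.00557 and Kcnj6 at 0.00274 in BAT sample 18, Kcnj5 at 0.00722 in iWAT sample 1, and Kcnj6 at 0.003 and Kcnj9 at 0.00755 in iWAT sample 16. Kcnj9 reached 0.0555 RPKM, from 7 reads, in eWAT sample 3, against 0.00703 to 0.0229 in the other eWAT samples. Kcnj2 had 8.66 RPKM in the same sample, against 5.01 to 6.37 in the others. This sample also had the highest macrophage and the lowest adipocyte marker levels of eWAT. Kcns3 was lowest in iWAT sample 5, at 6.69 RPKM against 9.10 to 10.5 in the others, a sample with the lowest adipocyte markers of iWAT.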

How the results depend on the processing

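Of 929 recomputed log2 fold changes of the named genes, 881 kept their direction and their side of the threshold, 13 newly passed it, 26 no longer passed it and 9 changed sign. A test against a log2 fold change beyond 1 left 14 of 34 potassium channel genes between iWAT and eWAT (10 higher in iWAT, 4 in eWAT). Of all genes, it left 2192 (11.2%). Between iWAT and BAT, it left 21 of 39 (7 higher in BAT) and 5765 of all genes (29.2%). Between eWAT and BAT, it left 28 of 40 and 8180 of all genes (40.7%). With no filter beyond 1 read, 15 were higher in eWAT than in iWAT (18% of all genes were), 24 were higher in BAT than in iWAT (25.6% of all genes), and 54 differed between eWAT and BAT (28 and 26; 55.5% of all genes). At a cutoff of 0.1 RPKM, 30, 31 and 30 genes were counted as expressed in iWAT, eWAT and BAT. Without TMM, the median over all tested genes moved, on the log2 scale, to 0.87 for iWAT over BAT and 0.89 for eWAT over BAT, and 7 potassium channel genes were higher in BAT than in iWAT, and the log2 fold change of iWAT over BAT became 0.15 for Kcnab1, 0.55 for Kcnj8 and 0.54 for Kcnq5, and that of eWAT over BAT 0.20 for Kcns3. Over all genes, the split without TMM was 13703 to 3054 for iWAT over BAT, against 7528 to 7336 with it, and 12965 to 4061 for eWAT over BAT, against 8243 to 8318. Kcnj8 between iWAT and BAT was 0.13 by limma on log2 RPKM with either pseudocount, and Kcna5 was -0.09 without iWAT samples 1 and 5. Kcnj15 between iWAT and eWAT was -0.01 without eWAT samples 1 and 3. None of these values passed the test under both settings, and the cause was not tested. Samples of iWAT and eWAT that share a number in their titles had correlated deviations of -0.268 to 0.494, of which 1 of 6 exceeded 0.1. Samples with different numbers gave -0.471 to 0.488, with 14 of 30 over 0.1. Given this spread, the correlations cannot decide whether equal numbers mark the same mouse. The pairing was not used in the main fits. With the replicate block, 24 genes differed between iWAT and eWAT (6 pairs; 22 of them shared with the unblocked fit), 31 between iWAT and BAT and 34 between eWAT and BAT (4 pairs, with 31 and 34 also called without the block on the same pairs), and Kcnc2 between eWAT and BAT became -0.02. Of all genes tested, 65.4%, 63.5% and 75.4% differed with the block. Without the samples that stood apart, 23 genes differed between iWAT and eWAT in either case. The shares of all genes were 67.2% without iWAT samples 1 and 5 and 60.2% without eWAT samples 1 and 3. Between iWAT and BAT, 35 and 30 differed (73.9% and 65.2% of all genes), and between eWAT and BAT 36 and 32 (80.8% and 74.1%). The second of each against BAT was without BAT samples 1, 5, 16 and 18, where Kcna7 had too few reads to be tested. DESeq2 called 25, 32 and 35, against 69.9%, 75.5% and 82.6% of all genes tested. Depth limits genes with few reads: 51 of the 92 were not tested in any comparison.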
